A study of Mus musculus with 12 samples.

Results

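Zfp36l1-deficient marginal zone (MZ) B cells were compared with follicular (FO) B cells in 8 of the 12 RNA sequencing libraries of the series, 4 per group, chosen by their labelled genotype and cell type. The question was which features of MZ cells the deficient cells kept in comparison with FO cells, and which they lost. All cells were sorted from mouse spleen: MZ cells by high CD21 without CD23, FO cells by both. The deficient MZ cells (replicates 1, 2, 7 and 8) carried the genotype Zfp36l1fl/flERT2cre/+, that is, both Zfp36l1 alleles floxed and 1 copy of a tamoxifen-type (ERT2) Cre. The FO cells (replicates 3, 4, 7 and 8) were Zfp36l1fl/fl without Cre, so both groups share the floxed allele and only the MZ cells carried a recombinase. The other 4 libraries, control MZ cells (ERT2cre/ERT2cre, replicates 3, 4, 5 and 6), carried 2 Cre copies and no floxed allele, and their values are set beside the comparison. All animals are listed under the strain Zfp36l1tm1.1Tnr; the sources used here state neither their age nor a treatment schedule. Whether replicates are separate animals is not said in the labels. All p-values therefore rest on the spread of the deposited libraries, and part of it may be technical.

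MZ B cells sit at the edge of the splenic white pulp, where they meet blood-borne antigens and shuttle antigen into the follicle, while FO B cells recirculate between spleen, lymph nodes and blood. Notch2 signalling drives the MZ fate, sphingosine 1-phosphate receptors hold the cells in the marginal zone, and the transcription factor Klf2 supports the FO programme of recirculation. Zfp36l1 is an RNA-binding protein of the ZFP36 family that recognises AU-rich elements in 3′ untranslated regions (UTRs) and recruits enzymes that shorten the poly(A) tail, so that the bound mRNA decays.

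The deficient and FO libraries also differ in how they were made. Per the design text, MZ libraries came from a SMARTer kit with paired reads and FO libraries from a stranded TruSeq kit with single reads. Cell type, genotype, Cre and kit therefore cannot be told apart between deficient MZ and FO cells, whereas deficient and control MZ libraries share the kit. The 2 MZ groups still differ in floxed alleles and in the number of Cre copies. Loss of Zfp36l1 cannot be told apart from these between them. Depth ranged from 28938453 to 40664963 counts per library. The median log2 difference between deficient MZ and FO cells was 0.44 in the 3450 genes with the shortest exonic sequence (up to 2203 bases) and −0.36 in the 3447 with the longest (from 6252 bases). In control MZ against FO cells these medians were 0.29 and −0.33, and between deficient and control MZ cells they were 0.08 and −0.05. Of 86 tested cytosolic ribosomal protein genes, 74 were lower in deficient MZ than in FO cells and 9 higher, where 38.4% and 42.9% of all tested genes were. Of 67 tested ribosomal protein pseudogenes, 55 were higher and 10 lower. Between deficient and control MZ cells 1 of 85 ribosomal protein genes was higher and 0 of 68 pseudogenes differed in edgeR's test (all tested genes: 3.7%). Their reads cannot be assigned with certainty among near-identical copies. The part of kit, read layout and mapping in any single difference from FO cells was not tested.

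Deficient MZ and FO cells differed in most of their transcriptome. Of 13895 genes tested, 5964 were higher and 5329 lower in deficient MZ cells (edgeR quasi-likelihood, adjusted p under 0.05), which is 81.3% of the genes tested, 42.9% higher and 38.4% lower. With a change of at least 2-fold also required, 40.8% were called. Control MZ and FO cells differed in 81.5% of 13843 genes, 42.6% higher and 38.8% lower in MZ cells. These 2 comparisons share the FO libraries, so their values are given side by side and not counted against each other. Between deficient and control MZ cells 517 of 13987 genes differed, 3.7%, with 321 higher and 196 lower in deficient cells. This smaller count fell to 306, 253 and 311 without control replicates 3, 4 and 6, and to 299 without deficient replicate 8.

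The targeted gene was lowest in the deficient cells. Zfp36l1 stood at 22, 31.8, 28.1 and 37.5 CPM (counts scaled to a common library size with TMM factors) in deficient MZ cells, at 116, 110, 118 and 126 in control MZ cells and at 370, 396, 352 and 361 in FO cells. The 3 groups did not overlap. The log2 difference between deficient MZ and FO cells was −3.60 (SE 0.13, adjusted p = 1.01e-10), and control MZ cells were themselves below FO cells by −1.65 (SE 0.06, adjusted p = 9.42e-11). Exons on the opposite strand cover 55.9% of its exonic sequence, and the sources used here do not state how strand was treated in counting. The gene at the ROSA26 locus, Gt(ROSA)26Sor, was lower in groups with more Cre copies in the labels: it was at 31.3 ± 2.53 CPM (SD, n = 4) in FO cells without Cre, 17.4 ± 2.27 in deficient MZ cells with 1 copy and 0.579 ± 0.219 in control MZ cells with 2.

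The 2 other family members expressed here differed from each other. Zfp36l2 held 201, 291, 207 and 186 CPM in deficient MZ cells, 122, 98.2, 108 and 74.7 in control MZ cells and 208, 184, 208 and 229 in FO cells. Deficient and FO libraries overlapped, and all control MZ libraries lay below both. The log2 difference from FO cells was 0.12 (SE 0.12, adjusted p = 0.361, 95% interval −0.14 to 0.39) and turned to −0.04 without deficient replicate 2, while deficient exceeded control MZ cells by 1.13 (SE 0.15, adjusted p = 0.00085). Zfp36 was lower than in FO cells in both MZ groups, at 273 ± 20.6 CPM in deficient, 246 ± 13.2 in control and 488 ± 80.2 in FO cells, with FO replicates 3 and 4 (550 and 565) above replicates 7 and 8 (422 and 416).

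Of the 4 marker genes named for the comparison, Cr2 and Cd1d1 stayed well above FO cells, while Klf2 and Vim moved toward FO levels. The sort selected for the product of Cr2, so its level cannot show a feature that was kept. Cr2, which encodes the complement receptor CD21 used in the sort, was at 3357, 3678, 3585 and 3177 CPM in deficient MZ, 4274, 4429, 3853 and 3899 in control MZ and 1529, 1138, 1490 and 1315 in FO cells. Deficient MZ cells exceeded FO cells by 1.36 (SE 0.10, adjusted p = 6.04e-08). Every deficient library lay below every control MZ library, but the difference of −0.26 (SE 0.08) had an adjusted p of 0.0687.

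Cd1d1, which presents lipids to NKT cells, was higher in deficient cells than in both other groups: 814, 842, 1032 and 1117 CPM in deficient MZ cells, 613, 627, 621 and 707 in control MZ cells and 50.4, 47.1, 60.2 and 55.3 in FO cells. The groups did not overlap. The log2 difference was 4.19 from FO cells (SE 0.12, adjusted p = 1.37e-11) and 0.56 from control MZ cells (SE 0.10, adjusted p = 0.00751).

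Klf2 moved most of the way to the FO level. The deficient libraries held 150, 150, 153 and 140 CPM, the control MZ libraries 33.2, 36.1, 49.2 and 43.2, and the FO libraries 199, 199, 193 and 210. No 2 groups overlapped. Control MZ cells were below FO cells by −2.30 (SE 0.10, adjusted p = 6.33e-10), whereas deficient cells were below them by only −0.40 (SE 0.06, adjusted p = 1.97e-05) and above control MZ cells by 1.87 (SE 0.10, adjusted p = 1.64e-07). The difference between deficient and FO cells did not pass a test against a change of 1.5-fold (edgeR glmTreat, adjusted p = 1).

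Vim, which encodes the intermediate filament vimentin, moved in the same direction but stopped further from FO cells. Its levels were 48.5, 42.5, 37.2 and 34.8 CPM in deficient MZ cells, 12.2, 11.2, 10.6 and 10.9 in control MZ cells and 286, 269, 281 and 269 in FO cells. The difference from FO cells was −2.73 (SE 0.09, adjusted p = 5.05e-11) in deficient and −4.61 (SE 0.06, adjusted p = 8.69e-14) in control MZ cells. Between the MZ groups it was 1.85 (SE 0.11, adjusted p = 2.58e-07).

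**Figure D1:**
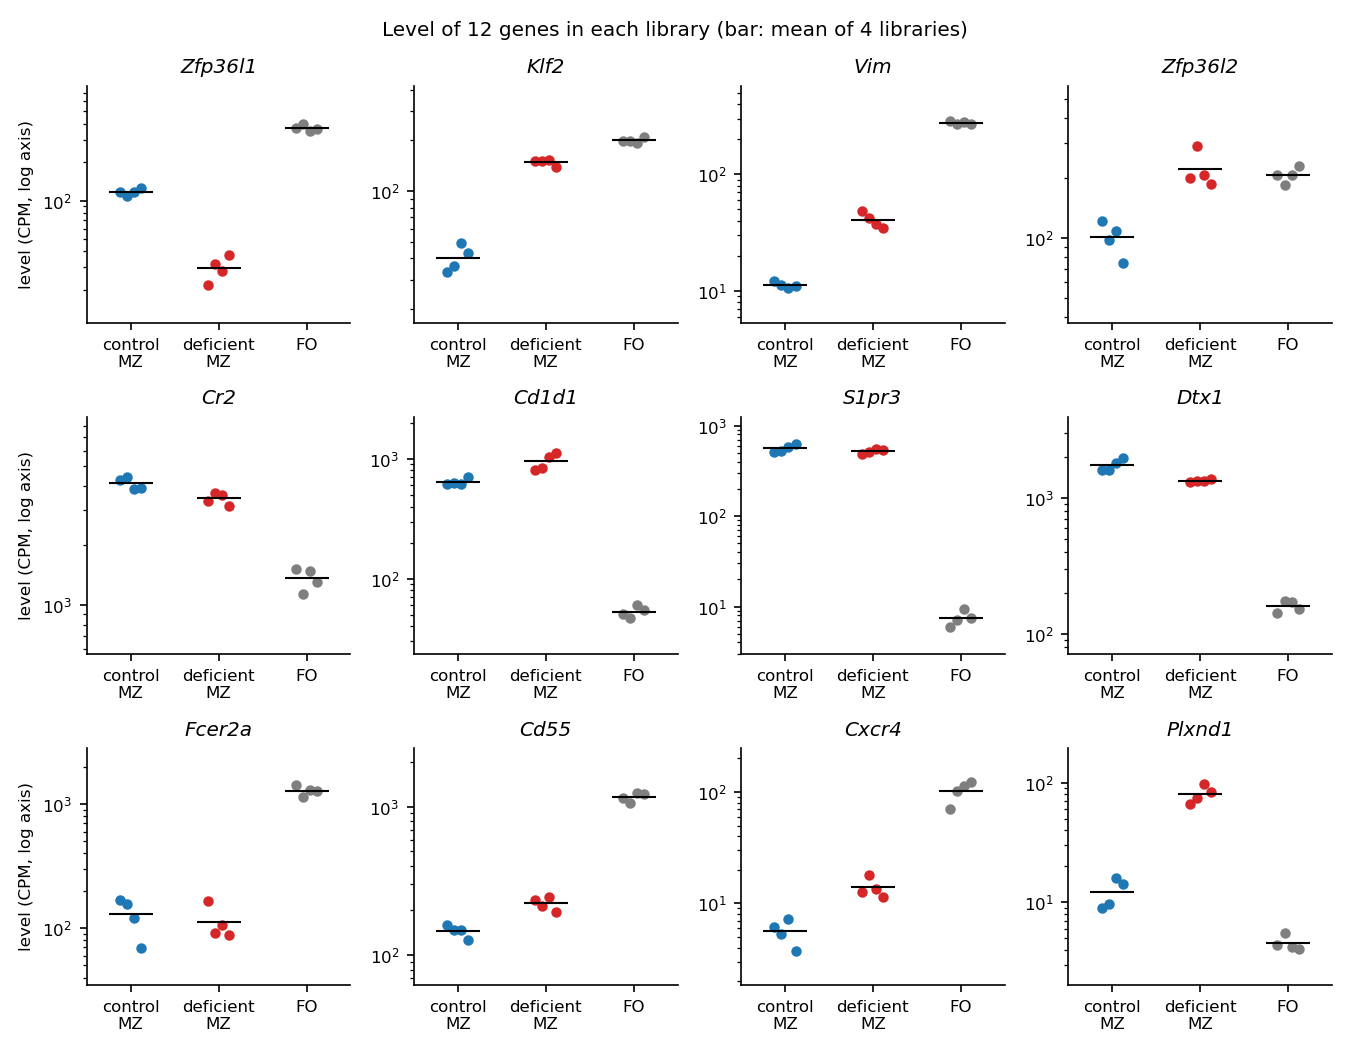
Levels of 12 genes in each of the 12 libraries, in TMM-scaled CPM on a log axis, for control MZ, deficient MZ and FO cells, with 1 point per library and a bar at the mean of 4. Klf2, Vim, Cd55 and Cxcr4 in deficient cells lie between control MZ and FO cells, whereas Cr2, Cd1d1, S1pr3 and Dtx1 lie well above FO cells in both MZ groups.

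The AU-rich heptamer TATTTAT, a motif that ZFP36 family proteins are known to bind, was searched on the sense strand of the longest annotated 3′ UTR of each gene (GENCODE M21, GRCm38). It was found in 3330 of the 11384 tested genes that have an annotated 3′ UTR, 29.3%. The sites below are those of Klf2 and Zfp36l2, which stood close to their FO levels in deficient cells, of Tlr3, an MZ gene that was higher still in deficient cells, and of Cd55, an FO gene that was partly raised. Each line shows 27 bases in the mRNA sense from 5′ to 3′, with the heptamer in capitals.

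Klf2, chr8:72320989-72321015, plus strand: aacagactgcTATTTATtggaccttag

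Zfp36l2, chr17:84184915-84184941, minus strand: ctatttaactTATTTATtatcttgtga

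Zfp36l2, chr17:84184867-84184893, minus strand: gtccatactgTATTTATcgagtatgat

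Zfp36l2, chr17:84184681-84184707, minus strand: ttgtatgtaaTATTTATttcattaatt

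Tlr3, chr8:45396808-45396834, minus strand: aagttttgtaTATTTATttatatgtat

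Tlr3, chr8:45396504-45396530, minus strand: gtcttgaactTATTTATctctgcctcc

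Cd55, chr1:130439095-130439121, minus strand: tagataaaccTATTTATatttatttat

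Tlr3 holds 3 heptamers and Cd55 3, of which the overlapping copies are not printed. The heptamer occurs in 18% of the 654 UTRs within 10% of the length of the Klf2 UTR (737 bases), in 36.7% for Zfp36l2, in 29.2% for Tlr3 and in 27.9% for Cd55. The 3′ UTRs of Vim (342 bases), Cd1d1 (746 bases), Cxcr4 (644 bases) and Dtx1 (1046 bases) hold 0 copies. All genes with printed sites were higher in deficient than in control MZ cells, but the heptamer was not confined to such genes. Among genes lower in deficient cells, Irf4, Itgb3, Tlr4 and Cecr2 hold 1 copy each and Antxr2 holds 2, while Sun2, Gna15 and Zkscan17 hold 0. Plxnd1, Grm6, Cd81 and Tspan15, which were higher, also hold 0. A match describes these letters in the annotated UTR and shows neither binding nor decay.

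In a list of 18 MZ identity genes the deficient cells kept nearly all of the difference between MZ and FO cells. The list was chosen with earlier results of these data known, so its counts are a description. It holds Cr2, whose product the sort selected for, so that member cannot show a feature that was kept. All 18 were tested, and 17 were higher and 1 lower than in FO cells (all tested genes: 42.9% higher, 38.4% lower). Their median log2 difference was 3.85 against 0.06 over all tested genes. In control MZ cells the counts were the same, 17 higher and 1 lower, with a median of 3.54. The member lower in both MZ groups was the receptor Notch2, at 297 ± 26.2 CPM in deficient, 278 ± 44.3 in control and 725 ± 47.1 in FO cells.

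Among receptors, S1pr3, a sphingosine 1-phosphate receptor of MZ cells, stood at 481, 511, 551 and 540 CPM in deficient MZ cells, 514, 529, 577 and 624 in control MZ cells and 5.96, 7.09, 9.29 and 7.39 in FO cells. The 2 MZ groups overlapped and both lay far above FO cells. The difference from FO cells was 6.16 (SE 0.12, adjusted p = 8.22e-13) in deficient and 6.25 (SE 0.12, adjusted p = 9.6e-13) in control cells, and between the MZ groups −0.12 (95% interval −0.28 to 0.05, adjusted p = 0.434). S1pr1, the receptor that draws lymphocytes toward blood, was at 1080 ± 27.7, 1177 ± 80.3 and 344 ± 57.7 CPM in deficient MZ, control MZ and FO cells. Ackr3, a scavenging chemokine receptor, was at 133 ± 13.6, 131 ± 20.1 and 0.106 ± 0.0524 CPM.

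The surface molecules of the list lay well above FO cells in both MZ groups. The tetraspanin gene Cd9 was at 163 ± 13.2 CPM in deficient MZ, 176 ± 47.2 in control MZ and 4.62 ± 1.71 in FO cells, and the scavenger receptor gene Cd36 at 330 ± 9.06, 339 ± 68.1 and 45.7 ± 3.52. Fcrl5, a receptor for immunoglobulin G, was at 405 ± 17.9, 403 ± 39.2 and 26.8 ± 5.21 CPM. For these 3 genes deficient MZ cells exceeded FO cells by 5.17, 2.88 and 3.95 (SE 0.18, 0.07 and 0.12), and the 2 MZ groups overlapped.

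Targets of Notch signalling were high in both MZ groups but did not all stand at the same level in them. Dtx1, a Notch-induced ubiquitin ligase, was at 1293, 1323, 1319 and 1359 CPM in deficient MZ, 1604, 1607, 1788 and 1954 in control MZ and 142, 175, 170 and 153 in FO cells. The difference from FO cells was 3.08 (SE 0.08, adjusted p = 5.69e-12), and deficient cells were below control MZ cells by −0.40 (SE 0.07, adjusted p = 0.00826). Hes1 and Hes5, transcriptional repressors downstream of Notch, were at 135 ± 19.5 and 54.1 ± 7.37 CPM in deficient MZ cells, 156 ± 7.15 and 39.0 ± 3.76 in control MZ cells and 22.4 ± 0.877 and 1.52 ± 0.0900 in FO cells.

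Asb2, a ubiquitin ligase subunit that acts on filamins, was at 309, 210, 270 and 255 CPM in deficient MZ cells, 162, 172, 141 and 161 in control MZ cells and 0.722, 1.80, 1.37 and 1.01 in FO cells. It was above FO cells by 7.77 (SE 0.20, adjusted p = 4.28e-12) and above control MZ cells by 0.71 (SE 0.10, adjusted p = 0.00182), with no overlap. Tlr3, a receptor for double-stranded RNA, was at 102 ± 12.2, 68.6 ± 1.08 and 6.43 ± 1.65 CPM in the same order of groups. The other members lay together in the 2 MZ groups: Marcks at 517 ± 18.4 and 534 ± 43.1 against 48.5 ± 6.02 in FO cells, Myof at 234 ± 29.0 and 295 ± 21.2 against 17.6 ± 5.10, Nebl at 90.1 ± 12.4 and 103 ± 6.90 against 3.83 ± 1.12, and Mzb1 at 655 ± 59.4 and 621 ± 76.5 against 167 ± 6.93.

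Within the kit shared by both MZ groups, 5 of the 18 MZ identity genes differed, Asb2, Cd1d1, Tlr3 and Hes5 higher and Dtx1 lower in deficient cells, where 2.29% of all tested genes were higher and 1.4% lower. The count of lower members was 2 without deficient replicate 1 or 7, and 3 with DESeq2 or without a filter. The call of Hes5 was lost without control replicate 3, 4 or 6 or deficient replicate 8 (adjusted p 0.0533 to 0.0691).

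The FO identity genes, chosen in the same way, gave a different picture. They include Fcer2a, whose product the MZ gate selected against. Of 16 members, 14 were lower in deficient MZ than in FO cells and 2 higher (all tested genes: 38.4% lower, 42.9% higher), with a median log2 difference of −1.41. In control MZ cells 14 were lower and 1 higher (all tested genes: 38.8% and 42.6%), with a median of −2.04. Within the shared kit 7 of the 16 were higher in deficient than in control MZ cells and 0 lower (all tested genes: 2.29% higher, 1.4% lower). Among them were Klf2, Cxcr4, Fcgrt, Cd55, Itgb7 and Ccr7.

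Ccr7, the receptor that guides B cells to the T zone, was at 142 ± 14.7, 109 ± 9.07 and 185 ± 16.2 CPM in deficient MZ, control MZ and FO cells. Its difference from control MZ cells, 0.36 (SE 0.08, adjusted p = 0.0238), missed the threshold without control replicate 3, 4 or 6 (adjusted p 0.0753 to 0.0775).

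Cxcr4, the receptor for CXCL12, was at 12.6, 17.9, 13.5 and 11.5 CPM in deficient MZ cells, 6.08, 5.30, 7.31 and 3.69 in control MZ cells and 69.8, 103, 114 and 124 in FO cells. It was below FO cells by −2.85 (SE 0.18, adjusted p = 1.19e-08) and above control MZ cells by 1.30 (SE 0.19, adjusted p = 0.00168), so most of the distance to FO cells remained. Cd55, which protects cells from complement, was at 223 ± 23.4, 146 ± 14.2 and 1162 ± 84.1 CPM. Fcgrt, the neonatal Fc receptor, was at 13.2 ± 2.69, 6.03 ± 1.43 and 56.2 ± 4.2 CPM, and the integrin subunit gene Itgb7 at 77.7 ± 9.99, 56.5 ± 7.59 and 330 ± 19.8. The call of Itgb7 against control MZ cells was lost without control replicate 5 or 6 or deficient replicate 1, 2 or 8 (adjusted p 0.0616 to 0.0953).

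Other FO genes were low in deficient cells as in control MZ cells. Fcer2a, which encodes CD23 and was used in the sort, was at 164, 90.8, 105 and 88.1 CPM in deficient MZ, 170, 155, 121 and 69.6 in control MZ and 1418, 1145, 1303 and 1283 in FO cells. Zfp318, which promotes IgD, was at 62.9 ± 6.12, 61.1 ± 9.95 and 512 ± 52.5 CPM, and Ighd at 810 ± 126, 783 ± 118 and 4344 ± 59.8. The 2 MZ groups overlapped in all 3 genes, and the log2 differences between them were −0.21, 0.03 and 0.04 (95% intervals −0.72 to 0.29, −0.20 to 0.26 and −0.21 to 0.29).

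The interleukin 4 receptor gene Il4ra (218 ± 29.2, 227 ± 14.8 and 605 ± 34.4 CPM in deficient MZ, control MZ and FO cells), Satb1 (95 ± 9.33, 91.1 ± 8.35 and 238 ± 4.48), Fcmr (758 ± 54.2, 896 ± 113 and 1333 ± 56.5) and Foxo1 (192 ± 5.07, 215 ± 14.9 and 279 ± 17.1) were also lower than in FO cells in both MZ groups. The 2 members higher than in FO cells were Cxcr5, the receptor for follicle entry, at 699 ± 58.5, 669 ± 36.0 and 564 ± 19.985 CPM, and the transcription factor gene Foxp1 at 624 ± 38.1, 554 ± 49.5 and 564 ± 7.08. The Foxp1 difference of 0.18 (SE 0.06, adjusted p = 0.0198) was lost without deficient replicate 7 or any 1 of the FO replicates 3, 4, 7 and 8 (adjusted p 0.0557 to 0.0818).

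**Figure D2:**
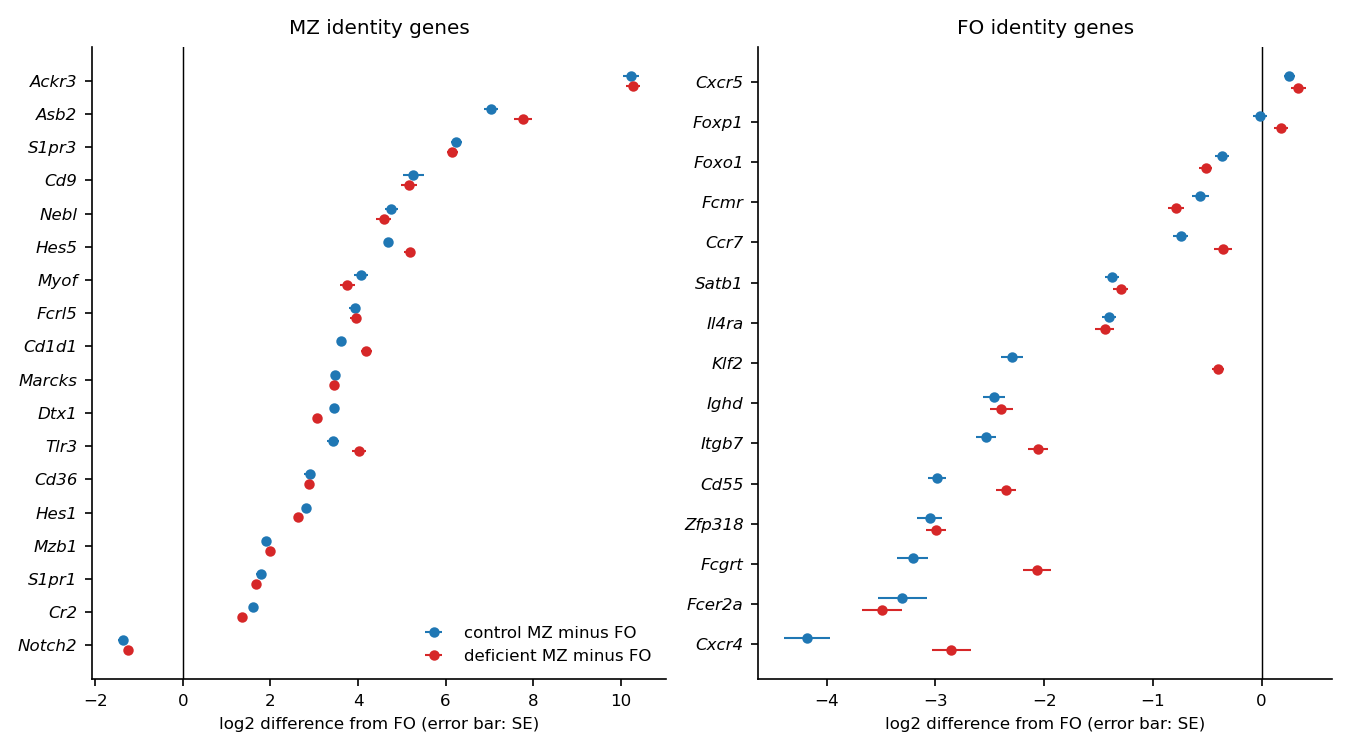
Log2 differences from FO cells with their SE for 18 MZ identity genes (left) and 15 of 16 FO identity genes (right), in control and deficient MZ cells, ordered by the control value. Both MZ groups lie close together in the MZ list except for small shifts such as Asb2 and Dtx1, while Klf2, Cxcr4, Fcgrt and Cd55 of the FO list lie nearer to 0 in deficient cells.

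The largest differences from FO cells were mostly found in both MZ groups. Among those higher, Tspan15, a tetraspanin gene, was at 164, 98.9, 143 and 169 CPM in deficient MZ cells, 87.8, 74.7, 77.3 and 65.2 in control MZ cells and 0.157, 0.0316, 0.213 and 0.0562 in FO cells, and its MZ level was higher in deficient than in control cells by 0.91 (SE 0.14, adjusted p = 0.00255). Ceacam2, an adhesion molecule gene, was at 59.9 ± 3.84, 45.9 ± 4.68 and 0.859 ± 0.339 CPM. The ribosomal protein pseudogenes Rps6-ps4, Rps19-ps6 and Rpsa-ps10 were at 169 ± 25.7, 156 ± 27.9 and 98.7 ± 11 CPM in deficient MZ cells and at 157 ± 13.6, 132 ± 12.5 and 93.6 ± 6.66 in control MZ cells. In FO cells Rps6-ps4 had no count in any library, where 3 counts correspond to 0.0843 to 0.0949 CPM.

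Among those lower than in FO cells, Cacna1i, a T-type calcium channel gene, was at 7.02, 5.61, 5.39 and 3.81 CPM in deficient MZ, 1.24, 1.02, 0.716 and 0.433 in control MZ and 384, 370, 362 and 387 in FO cells. It was below FO cells by −6.07 (SE 0.14, adjusted p = 1.77e-12) and above control MZ cells by 2.67 (SE 0.29, adjusted p = 0.000149). Clec2d, a ligand for NK cell receptors, was at 6.80 ± 1.46, 6.88 ± 1.19 and 477 ± 28.0 CPM, Mllt6 at 15.8 ± 3.25, 16.1 ± 2.35 and 612 ± 12, Zbtb33 at 2.79 ± 0.296, 2.23 ± 0.139 and 120 ± 8.47, and Tatdn2 at 3.32 ± 0.759, 4.62 ± 1.17 and 121 ± 5.76. The ribosomal protein gene Rpl21 was at 51.3 ± 5.06, 46.8 ± 6.43 and 1826 ± 57.7 CPM, with the same uncertainty over near-identical copies as above.

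Fos and Hspa1b, genes of the rapid stress response, were also among the largest decreases, and their FO libraries were spread. Fos was at 0.937, 0.810, 1.42 and 3.14 CPM in deficient MZ cells and at 138, 142, 51.0 and 32.1 in FO cells. Hspa1b was at 1.84, 1.34, 0.767 and 1.38 CPM in deficient MZ cells and at 142, 114, 83.3 and 59.7 in FO cells. In both genes FO replicates 3 and 4 lay above replicates 7 and 8, yet all FO libraries lay above all MZ libraries.

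Genes that differed in deficient cells from both other groups were grouped by the 4 possible orders. They were chosen for passing both tests, which share the deficient libraries, so the values are a description. Above both groups stood Plxnd1, a semaphorin receptor, at 66.8, 75.3, 97.9 and 83.2 CPM in deficient MZ cells, 9.07, 9.74, 16 and 14.3 in control MZ cells and 4.42, 5.50, 4.25 and 4.08 in FO cells. The glutamate receptor gene Grm6 (40.7 ± 15.2, 4.69 ± 0.174 and 9.10 ± 2.63 CPM in deficient MZ, control MZ and FO cells), Cd81 of the B cell coreceptor (951 ± 164, 499 ± 49.2 and 256 ± 7.34), Ggnbp1 (13.6 ± 2.29, 6.15 ± 0.847 and 9.74 ± 0.698) and the glucocorticoid-induced Tsc22d3 (284 ± 29.6, 142 ± 32.7 and 232 ± 11.5) followed the same order, as did Tspan15 above. The difference of Tsc22d3 from FO cells missed the threshold with all 12 libraries in 1 fit (edgeR, adjusted p = 0.0521).

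Between the 2 groups, besides Klf2, Vim, Cacna1i and Gt(ROSA)26Sor, lay the large scaffold gene Ahnak at 7.28 ± 1.12 CPM in deficient MZ, 1.70 ± 0.548 in control MZ and 203 ± 37.6 in FO cells, and the sugar transporter gene Slc2a6 at 8.70 ± 0.909, 2.64 ± 0.349 and 20.6 ± 2.57. Between them in the other direction lay Epcam, an epithelial adhesion molecule gene, at 20.7 ± 1.65, 35.1 ± 5.38 and 2.61 ± 0.625 CPM and St14, the protease matriptase, at 83.6 ± 2.28, 121 ± 4.32 and 37.3 ± 2.08. Optn at 18.6 ± 1.53, 26.4 ± 1.40 and 6.27 ± 1.36 CPM and the heparanase gene Hpse at 52.8 ± 6.06, 74.9 ± 11.8 and 31.0 ± 2.06 had the same order, so deficient cells lay below control MZ cells but above FO cells.

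Below both groups stood Itgb3, the β3 integrin gene, at 7.90, 9.08, 7.60 and 7.94 CPM in deficient MZ cells, 16.3, 15.4, 16.4 and 11.6 in control MZ cells and 63.2, 55.9, 60.7 and 56.7 in FO cells. Sun2, a protein of the nuclear envelope, was at 16.7 ± 1.04, 32.3 ± 9.94 and 481 ± 34.7 CPM. The G protein gene Gna15 (4.49 ± 1.35, 8.70 ± 1.02 and 14 ± 0.367), Cecr2 (16.7 ± 3.95, 32.1 ± 5.46 and 39.5 ± 1.82), Antxr2 (12.2 ± 2.16, 22.1 ± 1.66 and 33.4 ± 7.67) and Zkscan17 (11.8 ± 0.601, 20.4 ± 1.33 and 39.2 ± 1.15) had the same order.

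**Figure D3:**
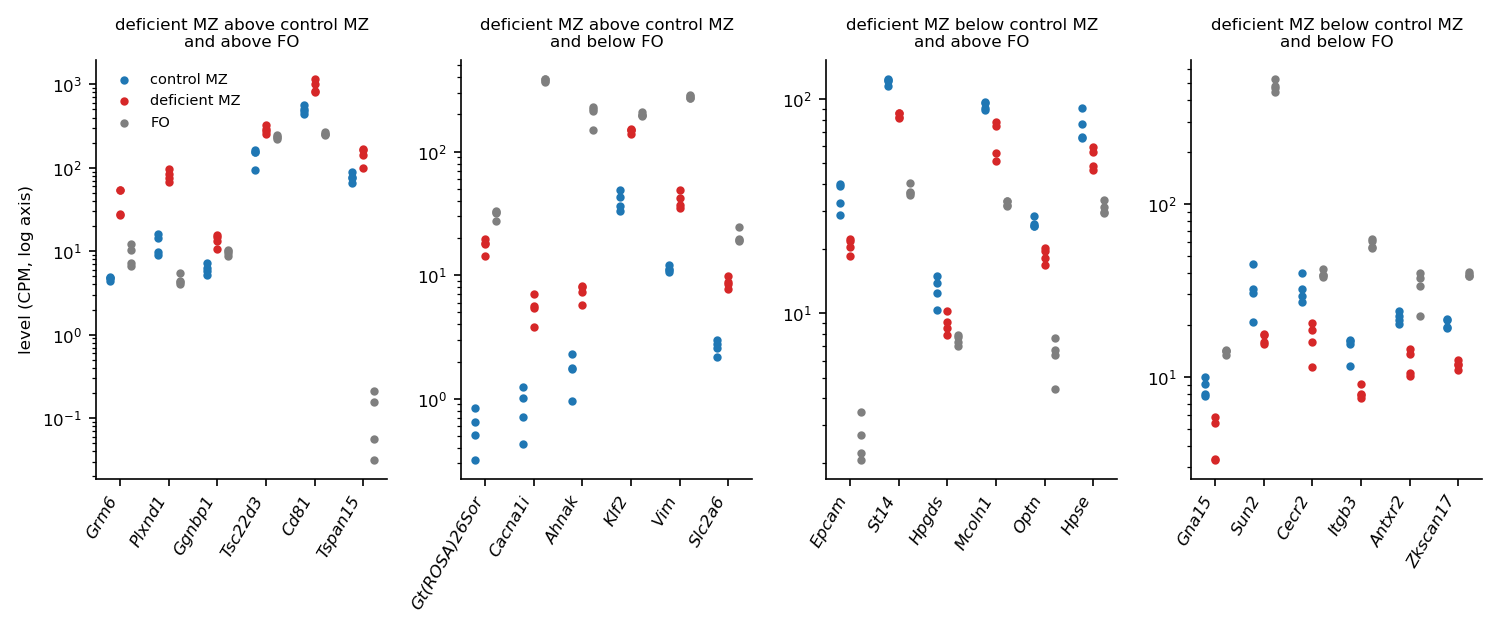
Levels in each library (TMM-scaled CPM, log axis) of the genes that differed in deficient MZ cells from both control MZ and FO cells, up to 6 for each order, with 1 point per library. Plxnd1 and Grm6 in deficient cells lie above both groups, Klf2 and Vim between them, Epcam and St14 between them in the other direction, and Itgb3 and Sun2 below both.

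Genes for vimentin, S100 proteins, annexins and actin-linked proteins were more often lower than higher in deficient MZ against FO cells, 16 against 11 of 31 tested (all tested genes: 38.4% lower, 42.9% higher), with a median of −0.25; in control MZ cells 19 of 29 were lower and 7 higher, with a median of −0.58. Within the shared kit 9 of the 31 were higher in deficient cells and 0 lower, where 2.29% of all genes were higher, and DESeq2 called 14. This list, which holds Vim, and the lists below were also chosen with earlier results of these data known. Their counts are therefore a description. Flna, which crosslinks actin, was at 373 ± 21.8 CPM in deficient MZ, 301 ± 41.2 in control MZ and 1376 ± 37.9 in FO cells.

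S100a6, a calcium-binding protein, was at 7.58, 4.78, 5.92 and 6.5 CPM in deficient MZ cells, 0.914, 1.23, 0.788 and 0.535 in control MZ cells and 8.60, 10.9, 7.80 and 8.77 in FO cells. Deficient cells lay just under FO cells, by −0.51 (SE 0.16, adjusted p = 0.00853), and above control MZ cells by 2.82 (SE 0.25, adjusted p = 2.27e-05). Emp3, a membrane protein, was at 29.1 ± 6.04, 15 ± 2.10 and 136 ± 9.28 CPM and so stayed nearer to control MZ cells. Lgals3 (galectin-3) was at 7.28 ± 1.60, 2.03 ± 0.788 and 5.17 ± 0.474 CPM, above FO cells by 0.52 (SE 0.16, adjusted p = 0.0103).

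Fscn1, which bundles actin, was at 18.1, 7.12, 16.6 and 6.47 CPM in deficient MZ, 3.19, 2.46, 4.08 and 4.84 in control MZ and 0.565, 1.42, 0.881 and 0.618 in FO cells. Unlike Vim, it was highest in deficient cells and lowest in FO cells, with control MZ cells between them. Anxa6, a membrane-binding annexin, was at 398 ± 37.0, 296 ± 26.8 and 445 ± 22.2 CPM, with a difference of −0.13 from FO cells (95% interval −0.29 to 0.03, adjusted p = 0.121, and 0.00531 without deficient replicate 1).

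**Figure D4:**
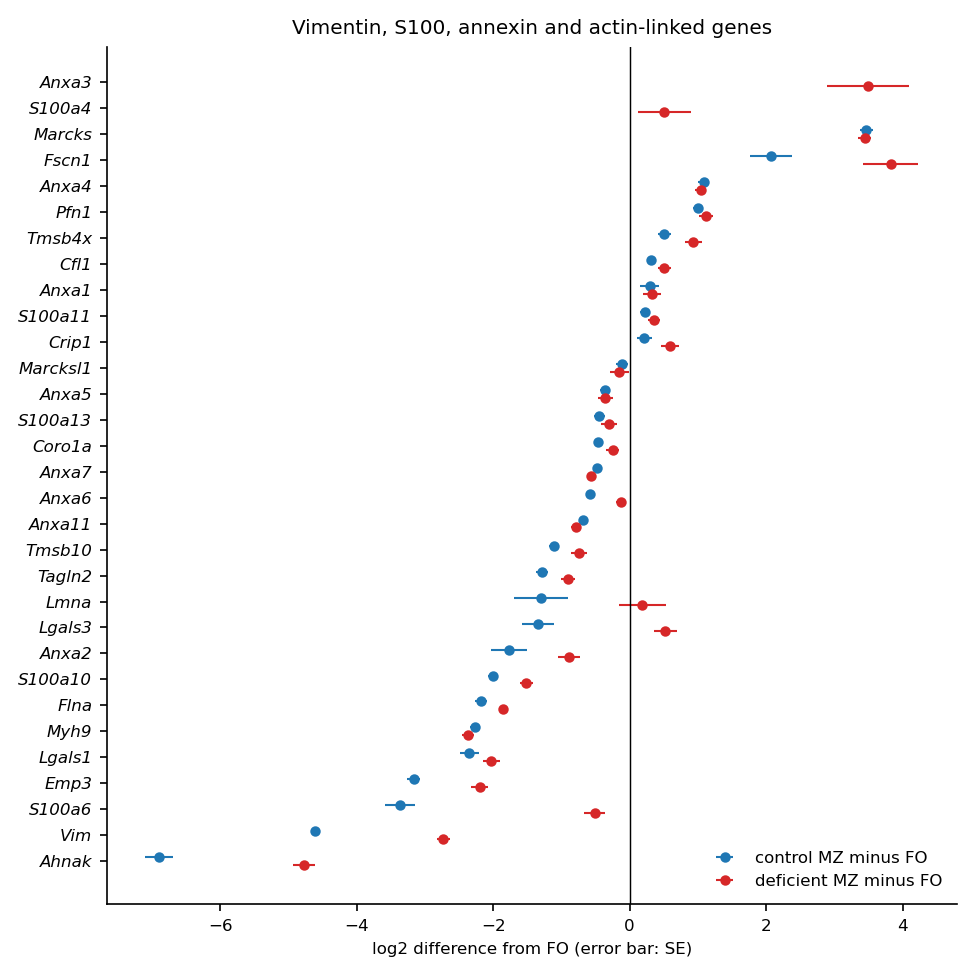
Log2 differences from FO cells with their SE for 31 genes of vimentin, S100 proteins, annexins and actin-linked proteins, in control and deficient MZ cells, ordered by the control value; Anxa3 and S100a4 were not tested in control MZ cells. Ahnak, Vim, S100a6 and Emp3 lie nearer to 0 in deficient than in control MZ cells, and Fscn1 lies further above it.

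Of 25 trafficking receptor genes tested, 12 were higher and 9 lower than in FO cells, close to the shares over all tested genes (42.9% and 38.4%). Against control MZ cells 5 were higher and 1 lower (all tested genes: 2.29% and 1.4%). Besides S1pr3, Ackr3 and Plxnd1, the lysophospholipid receptor gene P2ry10 was at 64.5 ± 11.7 CPM in deficient MZ, 54.9 ± 3.53 in control MZ and 319 ± 9.40 in FO cells. S1pr4, another sphingosine 1-phosphate receptor, was at 46.1, 39.0, 46.0 and 45.2 CPM in deficient MZ cells, 27.7, 27.4, 31.0 and 31.7 in control MZ cells and 123, 136, 135 and 148 in FO cells. It was above control MZ cells by 0.57 (SE 0.08, adjusted p = 0.00169) and below FO cells by −1.59 (SE 0.08, adjusted p = 9.73e-10).

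Of 32 adhesion genes, 17 were lower and 10 higher than in FO cells, where 38.4% of all tested genes were lower and 42.9% higher. Itgb1, the β1 integrin gene, was at 139 ± 13.1, 118 ± 14.7 and 40.2 ± 1.36 CPM in deficient MZ, control MZ and FO cells, while Alcam was at 2.12 ± 0.577, 1.31 ± 0.644 and 57.4 ± 3.57. Rasgrp2, which activates Rap1 and through it integrins, was at 142 ± 8.35, 102 ± 4.84 and 761 ± 38.6 CPM, above control MZ cells by 0.46 (SE 0.07, adjusted p = 0.00211).

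In the Notch pathway 14 of 42 tested genes were higher and 22 lower than in FO cells (all tested genes: 42.9% higher, 38.4% lower). Dtx1 and Hes5 were among the higher ones, while the coactivator gene Maml1 was at 14.3 ± 0.610, 15 ± 1.21 and 67.3 ± 3.52 CPM and the ubiquitin ligase gene Neurl3 at 71.3 ± 6.75, 77.1 ± 14.3 and 351 ± 26.2. Both MZ groups overlapped in these 2 genes.

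Of 26 genes of Toll-like receptor signalling, 11 were higher and 11 lower than in FO cells, close to the shares over all tested genes (42.9% and 38.4%). Against control MZ cells 1 was higher and 3 lower (all tested genes: 2.29% and 1.4%). Tlr9, a receptor for CpG DNA, was at 7.36 ± 0.656 CPM in deficient MZ, 8.92 ± 0.687 in control MZ and 151 ± 8.82 in FO cells, whereas Ly96, the partner of Tlr4, was at 25.7 ± 1.89, 31.3 ± 2.64 and 3.38 ± 0.176 and Irak1, a signalling kinase, at 347 ± 6.64, 342 ± 12.8 and 201 ± 5.91. Tlr4, the receptor for lipopolysaccharide, was at 31.7, 36.4, 36.2 and 35.9 CPM in deficient MZ, 51.2, 46.1, 45.9 and 42.2 in control MZ and 45.2, 42.6, 40.5 and 41.4 in FO cells. Deficient cells lay below both other groups, by −0.25 from FO cells (SE 0.07, adjusted p = 0.00645) and by −0.41 from control MZ cells (SE 0.08, adjusted p = 0.0135). The difference from FO cells did not pass a test against a change of 1.5-fold (edgeR glmTreat, adjusted p = 1).

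Of 41 genes of B cell receptor signalling, 18 were higher and 15 lower than in FO cells, near the 42.9% and 38.4% of all tested genes. Against control MZ cells 5 were higher and 2 lower (all tested genes: 2.29% and 1.4%). The adaptor gene Blnk was at 852 ± 19.2 CPM in deficient MZ, 801 ± 6.13 in control MZ and 400 ± 6.60 in FO cells, whereas the kinase gene Btk was at 201 ± 5.04, 208 ± 10.1 and 407 ± 1.93 and Rasgrp3, a Ras activator, at 180 ± 17.5, 185 ± 29.7 and 482 ± 13.2. Pik3cg, a catalytic subunit of PI3 kinase, was at 61.1, 73.5, 66.1 and 60.3 CPM in deficient MZ, 117, 111, 98.7 and 80.3 in control MZ and 171, 154, 160 and 159 in FO cells. It was below FO cells by −1.28 (SE 0.07, adjusted p = 4.27e-09) and below control MZ cells by −0.65 (SE 0.11, adjusted p = 0.0043).

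Transcription factor genes of B cells were lower in 29 and higher in 19 of 53 tested, where 38.4% of all tested genes were lower and 42.9% higher. The germinal centre repressor gene Bcl6 was at 24.2 ± 1.88, 28.5 ± 1.17 and 186 ± 14.6 CPM in deficient MZ, control MZ and FO cells, Bach2, which restrains plasma cell formation, at 46.0 ± 5.03, 34.1 ± 6.78 and 307 ± 31.1, and the lineage factor gene Pax5 at 43.4 ± 6.27, 42.5 ± 10.4 and 267 ± 7.65. Id2, an inhibitor of E proteins, was at 60.7 ± 4.90, 46.1 ± 6.09 and 3.01 ± 0.809 CPM. Against control MZ cells 7 of the 53 were higher and 1, Irf4, lower (all tested genes: 2.29% and 1.4%). The lower ones numbered 2 without deficient replicate 1 or 7 or without a filter, and 4 with DESeq2.

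Irf4, which drives plasma cell formation, was at 116, 130, 131 and 114 CPM in deficient MZ cells, 171, 170, 177 and 180 in control MZ cells and 211, 184, 208 and 219 in FO cells. The groups did not overlap, and deficient cells were below FO cells by −0.72 (SE 0.07, adjusted p = 1.09e-06) and below control MZ cells by −0.52 (SE 0.07, adjusted p = 0.00085).

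Irf8, which acts with Irf4 on shared sites, was at 745, 636, 680 and 655 CPM in deficient MZ, 539, 495, 491 and 569 in control MZ and 554, 700, 539 and 550 in FO cells. Deficient libraries overlapped FO libraries through FO replicate 4. The difference from FO cells, 0.24 (SE 0.09, adjusted p = 0.025), missed the threshold without deficient replicate 1 or FO replicate 3, 7 or 8 (adjusted p 0.0747 to 0.104), and that from control MZ cells, 0.37 (SE 0.07, adjusted p = 0.0145), without control replicate 4 (adjusted p 0.0591).

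Bhlhe40, a repressor induced by activation, was at 30.5, 32.9, 31.5 and 37.0 CPM in deficient MZ cells, 13.7, 13.9, 15.8 and 11.8 in control MZ cells and 29.5, 35.4, 24.4 and 28.8 in FO cells. Deficient and FO libraries overlapped, with a difference of 0.19 (95% interval −0.04 to 0.42, adjusted p = 0.119, and 0.0228 without FO replicate 4), while deficient exceeded control MZ cells by 1.25 (SE 0.10, adjusted p = 1.07e-05). Pou2f2, which encodes OCT2, was at 263 ± 7.70, 197 ± 15.2 and 509 ± 36.7 CPM, so its deficient level lay between control MZ and FO cells.

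Of 28 genes of antibody secretion, 18 were higher and 7 lower than in FO cells (all tested genes: 42.9% higher, 38.4% lower), with a median of 0.45. The disulphide isomerase gene Pdia4 was at 1807 ± 57.4 CPM in deficient MZ, 1700 ± 180 in control MZ and 226 ± 24.4 in FO cells, and Edem1, which helps clear misfolded proteins, at 359 ± 19.1, 314 ± 25.5 and 175 ± 4.46. Ppib, a peptidyl-prolyl isomerase of the secretory pathway, was at 29.7 ± 4.91, 28.3 ± 2.86 and 183 ± 8.03 CPM. The plasma cell factors Prdm1 (7.66 ± 0.950, 9.80 ± 1.74 and 1.52 ± 0.165) and Xbp1 (199 ± 23.2, 199.9 ± 9.76 and 92.1 ± 10.7) were higher in both MZ groups than in FO cells.

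Cell cycle genes were higher in 25 and lower in 9 of 45 tested in deficient MZ against FO cells, with a median of 0.91 (all tested genes: 42.9% higher, 38.4% lower), and higher in 16 and lower in 13 in control MZ against FO cells, with a median of 0.11. The 16 became 10 without FO replicate 7 or 8. Within the shared kit 8 of the 45 were higher in deficient cells and 0 lower, where 2.29% and 1.4% of all tested genes were. The higher ones numbered 5, 4 and 5 without control replicate 3, control replicate 4 or deficient replicate 8, and 13 with DESeq2. Cdk1, the mitotic kinase, was at 3.07, 2.60, 3.62 and 2.43 CPM in deficient MZ, 1.24, 1.31, 1.34 and 1.17 in control MZ and 0.565, 1.46, 0.668 and 1.15 in FO cells. Deficient cells lay above both groups, by 1.64 from FO cells (SE 0.29, adjusted p = 0.000164) and 1.21 from control MZ cells (SE 0.21, adjusted p = 0.00667).

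Ube2c, a ubiquitin-conjugating enzyme of mitosis, was at 4.74, 3.10, 2.97 and 2.43 CPM in deficient MZ, 0.890, 0.830, 1.1 and 1.27 in control MZ and 0.220, 0.949, 0.273 and 0.365 in FO cells, again above both. Rrm2, a subunit of ribonucleotide reductase, was at 10.4 ± 1.91, 5.81 ± 1.13 and 4.72 ± 1.26 CPM, and the transcription factor gene Mybl2 at 15.1 ± 2.14, 9.74 ± 0.938 and 3.56 ± 0.666. Nusap1 (14.1 ± 1.15, 12.1 ± 2.44 and 2.41 ± 0.740) and Tyms (10.3 ± 1.15, 10.5 ± 0.399 and 3.80 ± 0.356) were above FO cells in both MZ groups, whereas Mki67 was at 6.44 ± 1.43, 6.80 ± 2.26 and 8.61 ± 4.89 CPM and Prim1 at 9.63 ± 1.63, 11.3 ± 0.709 and 26.6 ± 0.953.

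Markers of erythroid cells moved with the same groups. Their summed level was 8.10 to 26.6 CPM in deficient MZ, 1.70 to 12 in control MZ and 1.88 to 7.47 in FO libraries. In deficient MZ cells 7 of 7 tested markers were higher than in FO cells, where 42.9% of all tested genes were. None of the 10 markers was at 0 in every library of a group. Their part in the cell cycle values was not tested.

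Among 25 tested genes published as targets of the ZFP36 family, 9 were higher and 11 lower than in FO cells, with a median of −0.08, shares near those of all tested genes (42.9% and 38.4%). Against control MZ cells 8 were higher and 0 lower, where 2.29% and 1.4% of all tested genes were. With earlier results known when the list was chosen, these counts are a description. Myc, a growth regulator, was at 397, 522, 386 and 378 CPM in deficient MZ cells, 236, 228, 252 and 311 in control MZ cells and 46.1, 56.3, 41.1 and 42.7 in FO cells. It exceeded FO cells by 3.21 (SE 0.13, adjusted p = 1.79e-10) and control MZ cells by 0.70 (SE 0.11, adjusted p = 0.00341). Pim1, a survival kinase, ran the other way against FO cells, at 9.39 ± 2.17 CPM in deficient MZ, 5.11 ± 0.668 in control MZ and 65.6 ± 4.13 in FO cells, and so did Cdkn1b, the inhibitor p27, at 22.3 ± 1.90, 20.1 ± 3.29 and 299 ± 24.0.

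Cell cycle entry genes of the G1 phase were higher in 8 and lower in 10 of 25 tested against FO cells (all tested genes: 42.9% higher, 38.4% lower). Against control MZ cells 4 were higher and 2 lower (all tested genes: 2.29% and 1.4%). Ccnd3 (cyclin D3) was at 150, 113, 123 and 117 CPM in deficient MZ, 81.2, 81.5, 79.2 and 78.6 in control MZ and 66.3, 79.6, 70.2 and 65.7 in FO cells, above FO cells by 0.86 (SE 0.09, adjusted p = 2.56e-06) and above control MZ cells by 0.64 (SE 0.09, adjusted p = 0.000885). E2f1 was at 19.1 ± 1.90, 17.0 ± 2.5 and 3.82 ± 0.941 CPM, while E2f2, at 70.3 ± 4.05, 46.1 ± 2.86 and 105 ± 13.2, lay between the groups. Both are transcription factors of S phase entry.

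Interferon response genes were higher in 16 and lower in 0 of 29 tested against FO cells, where 42.9% and 38.4% of all tested genes were (lower in 1 without FO replicate 3, with DESeq2, without a filter or with all 12 libraries), with a median of 0.86, and in control MZ cells 14 were higher and 1 lower. Ifit1, an RNA sensor, was at 46.4, 27.5, 24.9 and 20.8 CPM in deficient MZ, 27.0, 26.8, 24.3 and 38.2 in control MZ and 1.13, 6.96, 2.76 and 6.97 in FO cells. FO libraries were widely spread in these genes: Isg15, a ubiquitin-like protein, ranged from 3.77 to 16.6 CPM and Ifit3 from 4.42 to 26.1 across FO replicates 3, 4, 7 and 8, with replicate 3 lowest in both. Gbp3, a GTPase of host defence, was at 190 ± 8.37 CPM in deficient MZ, 149.7 ± 23.5 in control MZ and 83.8 ± 15.1 in FO cells.

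In the remaining lists the share called was read against 81.3% over all genes (42.9% higher, 38.4% lower). Of 44 genes of mRNA deadenylation and decay, 26 were lower and 12 higher than in FO cells, among them the deadenylase gene Cnot6l at 61.0 ± 4.35, 69.2 ± 4.94 and 242 ± 10.6 CPM in deficient MZ, control MZ and FO cells. Cytokine, BAFF and TNF receptor genes were higher in 15 and lower in 9 of 30, and Il5ra, a subunit of the interleukin 5 receptor, was at 20.4 ± 2.83, 8.93 ± 3.29 and 51.7 ± 5.44 CPM. Immediate-early genes were higher in 11 and lower in 12 of 28, survival genes in 10 and 9 of 21, MHC class II and costimulation genes in 7 and 6 of 16, glycolysis genes in 11 and 4 of 20 and cholesterol synthesis genes in 6 and 10 of 22.

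**Figure D5:**
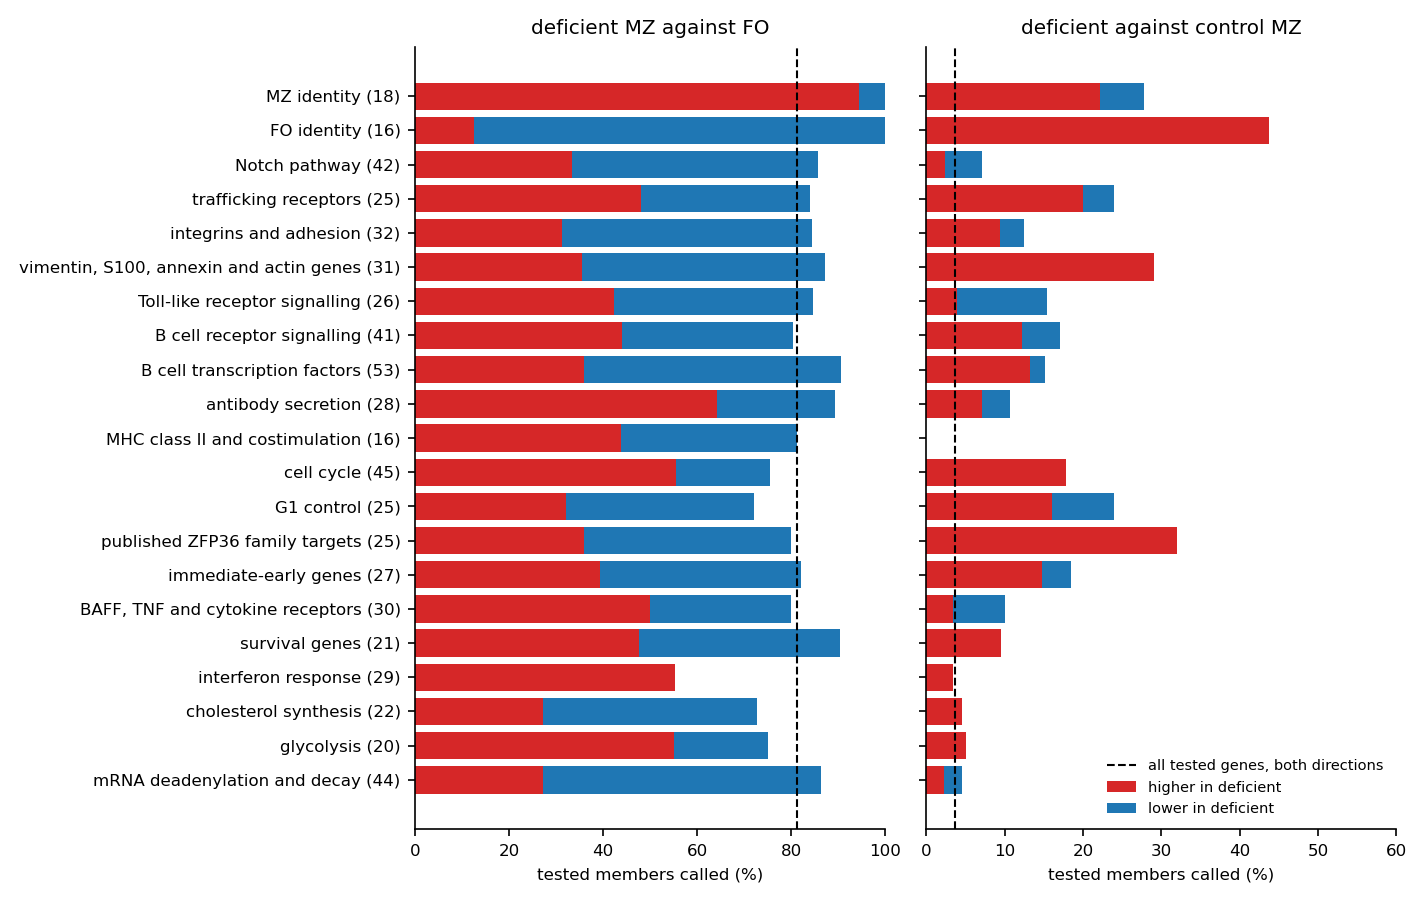
Percentage of the tested members of each gene list (number tested against control MZ cells in brackets) that were higher (red) or lower (blue) in deficient MZ cells, against FO cells (left) and control MZ cells (right), with a dashed line at the percentage of all tested genes called in either direction. The MZ identity bar on the left is almost all red and the FO identity bar mostly blue, while on the right the FO identity, vimentin and ZFP36 target bars are red.

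Both groups carried the genes of B cells. Of 5 markers of all B cells, 4 were higher and 1 lower in deficient MZ than in FO cells (all tested genes: 42.9% higher, 38.4% lower). Ms4a1, which encodes CD20, was at 3783 ± 188 CPM in deficient MZ and 2479 ± 74.8 in FO cells. The lower marker was Pax5, whose levels are given above. The labels list both sorting gates as CD93-positive, but Cd93 was at 0.715 ± 0.644 CPM in deficient MZ, 0.677 ± 0.273 in control MZ and 19.6 ± 2.45 in FO cells, so its RNA was near 0 in the MZ groups. The 8 MZ B cell markers summed to 6454 to 6971 CPM in deficient and 7264 to 7609 in control MZ libraries, without overlap. In FO libraries the sum was 1864 to 2239. They include Cr2, whose product the sort selected for, and Klf2 and Vim, which were highest in FO cells. Of these 8, 3 were higher and 1 lower in deficient than in control MZ cells (all tested genes: 2.29% and 1.4%). The 5 transitional B cell markers summed to 503 to 598, 388 to 495 and 601 to 789 CPM in deficient MZ, control MZ and FO libraries. The 4 FO B cell markers summed to 1607 to 1953 CPM in deficient MZ, 1418 to 1528 in control MZ and 4164 to 4288 in FO libraries, so the MZ groups did not overlap. Of the 4, 2 were higher in deficient than in control MZ cells, where 2.29% of all tested genes were. Klf2 is among the 4, so its own difference between the MZ groups enters this sum. Among the FO genes, Fcer2a, whose product the MZ gate selects against, and Ighd overlapped between the MZ groups. The part of FO cells in the differences between the MZ groups was not tested.

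Markers of other spleen cells were low apart from single genes. Summed over 15 macrophage and monocyte markers, levels were 44.4 to 60.5 CPM in deficient MZ, 43.8 to 57.2 in control MZ and 20.6 to 45.5 in FO libraries. Of 11 tested markers, 10 were higher in deficient MZ than in FO cells, where 42.9% of all tested genes were. Platelet markers summed to 9.24 to 19.4, 15 to 22.7 and 3.64 to 4.41 CPM, and 6 NK cell markers to 20.2 to 27.1, 17.8 to 23.9 and 2.76 to 3.67, with Gzma and Ncr1 at 0 in every MZ library. The 11 T cell markers summed to 169 to 213, 143 to 180 and 298 to 322 CPM, mostly Cd2 (146 ± 17.8, 113 ± 12.5 and 266 ± 6.94), and Thy1 was at 0 in every MZ library. Of 4 tested T cell markers, 3 were higher in deficient than in control MZ cells, where 2.29% of all tested genes were higher: Cd2, Cd8a (1.96 ± 1.12 against 0.474 ± 0.108 CPM) and Tcf7 (1.03 ± 0.627 against 0.183 ± 0.0933). The count was 1 without deficient replicate 1 or 8 or control replicate 3 or 4. Cd3e, which all T cells carry, was at 0.00698 ± 0.014 CPM in deficient and at 0 in every control MZ library. The 10 stroma and endothelium markers summed to 294 to 318, 266 to 291 and 397 to 467 CPM in deficient MZ, control MZ and FO libraries, nearly all of it Pecam1 (302 ± 10.7, 275 ± 10.8 and 429 ± 34.9), with Col3a1 and Ccl21a at 0 in every deficient and FO library. The 9 dendritic cell markers summed to 12.8 to 20.1, 11 to 15.9 and 9.96 to 14.3 CPM. Of 7 tested, 3 were higher in deficient MZ than in FO cells (6 without FO replicate 4), near the 42.9% of all tested genes. The 7 B-1 cell markers summed to 57.2 to 77.5, 48.2 to 67.7 and 33.2 to 54.4 CPM, and 4 of 6 tested were higher in deficient MZ than in FO cells (all tested genes: 42.9%). In these bulk samples fewer cells of a type and less RNA per cell cannot be told apart, and the part of other cells in the differences between groups was not tested.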

How the data were processed

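RNA from sorted splenic B cells was sequenced in 12 libraries. The authors deposited raw counts per Ensembl gene, made with Trim Galore, TopHat2 2.0.12 and HTSeq on GRCm38 per the submitters' processing notes. The sources used here do not state the annotation release, counting mode or strand setting. The TruSeq kit of the FO libraries rests on the design text, since the labels' protocol mentions only SMARTer. Of 43629 genes, 19338 had no count, and 42462 were matched to GENCODE M21 for symbols and coordinates.

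Every contrast used only its 8 libraries, fitted with edgeR 4.0.16 (quasi-likelihood test, TMM scaling, filterByExpr) in R 4.3.3. P-values were adjusted by the Benjamini-Hochberg method over all tested genes, with a threshold of 0.05. Log2 fold changes are edgeR's fitted values with the default prior count of its quasi-likelihood fit. Levels are CPM with TMM factors over all 12 libraries (1.02 to 1.10 in MZ, 0.851 to 0.875 in FO libraries), not per length, so they compare groups and not genes. TMM scaling assumes that most genes do not differ, whereas 81.3% were called between deficient MZ and FO cells. Small differences from FO cells therefore depend on this scaling. A gene's adjusted p-value in the text is from this edgeR test unless another is named. Tested on simulated data for deficient MZ against FO cells (13895 genes, 200 changed), the fit recovered 59.7% of 1.5-fold, 80.6% of 2-fold and 92.4% of 4-fold changes, with 4.91% false calls. For deficient against control MZ cells (13987 genes) these were 59.7%, 71.6% and 97%, with 8.43% false, and for control MZ against FO cells (13843 genes) 59.7%, 67.2% and 97%, with 8.59% false, both above the 5% aimed for. The simulated data held far fewer changed genes than were called against FO cells, and no kit difference. These rates therefore do not carry over to the real comparisons with FO cells. Alternatives were DESeq2 1.42.0, its size factors in edgeR, no filter and a stricter filter (CPM of at least 1 in 4 libraries), all 12 libraries in 1 fit, a test against 1.5-fold, removal of genes overlapped on the other strand, a replicate block and leaving out each replicate. No 2 replicates agreed within sampling noise (chi-square per gene 5.45 to 44.5).

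The members and gene lists were chosen with earlier results of these data known. Genes are named by 4 rules: a fixed set of markers; the 8 largest changes in each direction against FO cells; every member of the MZ and FO identity lists and up to 4 called members of other lists with the smallest p; and up to 6 genes for each order of the groups. The second and last rules required non-overlapping groups, a mean log2 CPM of 3 or more and no more than 20% of exonic sequence covered on the opposite strand. Anxa6, Bhlhe40, Ccnd3, Cd3e, Cd8a, Cdk1, E2f2, Emp3, Fscn1, Id2, Il5ra, Lgals3, Mki67, Pecam1, Pik3cg, Pim1, Pou2f2, Rrm2, S100a6, S1pr4, Tcf7, Tlr4 and Ube2c were named after their values were seen. The authors' normalised table and their own comparisons were not used. Some genes covered by these rules are counted in the totals but not reported here.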

Additional observations from a re-analysis of the deposited data

Results flagged for a closer look

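Each of the levels below (TMM-scaled CPM) lay far from the other 3 libraries of its group, with a gap to the nearest of them that passes Dixon's 95% critical value for 4 samples. It was met in 23 of 383 combinations of a named gene and a group, and chance alone marks about 1 in 20 groups. No explanation was tested.

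In deficient MZ cells, replicate 2 was the highest for Myc, with 521.8 CPM against 377.8 to 396.9 in the others, and for Zfp318, with 71.98 against 59.25 to 60.88. It was the lowest for S1pr4, with 39.05 against 45.22 to 46.07. Replicate 1 was the highest for Hes1, with 164.4 against 123.9 to 129.4, and for Rpl21, with 58.92 against 48.59 to 49.3, and the lowest for Tlr4, with 31.73 against 35.9 to 36.39.

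In FO cells, replicate 4 was the highest for Irf8 (699.8 against 538.8 to 553.7), E2f2 (124.9 against 97.35 to 99.47), Slc2a6 (24.39 against 18.92 to 19.65) and Rrm2 (6.58 against 3.948 to 4.357) and the lowest for Marcks (39.61 against 50.17 to 52.35). Replicate 3 was the highest for Ighd (4433 against 4304 to 4324) and Rpl21 (1912 against 1789 to 1807) and the lowest for Mzb1 (156.8 against 169.7 to 171.3). Replicate 8 was the lowest for Gna15 (13.46 against 14.12 to 14.24).

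In control MZ cells, replicate 5 was the highest for Ccr7 (122.9 against 103.7 to 105.7), Cd2 (131.2 against 105 to 108.4), Rps6-ps4 (176.7 against 147.4 to 152.1) and Rrm2 (7.499 against 5.139 to 5.376). Replicate 6 was the highest for Cd1d1 (706.9 against 612.7 to 627.2) and Optn (28.46 against 25.54 to 25.96) and the lowest for Tsc22d3 (93.05 against 154.6 to 163.4). Replicate 3 was the highest for Hspa1b (6.869 against 1.051 to 1.248).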

How the results depend on the processing

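Against FO cells, a test for changes beyond 1.5-fold called 6894 genes, 3603 higher and 3291 lower. Of the genes named with a difference from FO cells, Ccr7, Cxcr5, E2f2, Foxo1, Foxp1, Ggnbp1, Irf8, Klf2, Lgals3, Ms4a1, Pecam1, S100a6, Tlr4 and Tsc22d3 lost their call in that test. Leaving out 1 replicate at a time gave 11145 to 11477 called genes (5869 to 6107 higher, 5230 to 5462 lower) for deficient MZ and 11182 to 11480 (5834 to 6091 higher, 5267 to 5398 lower) for control MZ against FO cells. Between deficient and control MZ cells that range was 253 to 483 (171 to 293 higher, 82 to 190 lower). DESeq2 called 1052 genes there (580 higher, 472 lower), all 12 libraries in 1 fit 788 (343 lower), and the fit without a filter 307 lower. The cause of these shifts was not tested.

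The MZ identity counts were 18 called, 17 higher and 1 lower, without any 1 replicate. Of the FO identity genes, 15 to 16 were called, 14 lower and 1 to 2 higher, and the higher ones numbered 1 with no filter or all 12 libraries and 0 against 1.5-fold. The log2 difference of Zfp36l2 from FO cells became −0.041 without deficient replicate 2 (up to 0.192 without deficient replicate 8) and −0.142 with the replicate block. That of Mki67 ran from −0.593 without FO replicate 8 to 0.060 without FO replicate 4 and was 0.276 with the block. Neither gene was called. Between the MZ groups, Ighd became −0.051 without deficient replicate 1 and −0.058 without control replicate 6 (up to 0.115 without control replicate 3), and Zfp318 −0.036, −0.016 and −0.054 without deficient replicate 2 and control replicates 5 and 6 (up to 0.116 without control replicate 3), all uncalled. Cr2 was called lower in deficient than in control MZ cells by DESeq2 (adjusted p = 0.015) and without a filter (adjusted p = 0.0439).

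Deficient MZ and FO libraries share the replicate numbers 7 and 8, and the deviations of these pairs correlated at 0.15 and 0.0144; pairs of unlike number reached at most 0.104. With 2 pairs, whether a number marks a shared animal or day cannot be told. The replicate block on these 4 libraries called 11360 genes (5993 higher, 5367 lower), and with it the difference of Tlr4 from FO cells was −0.172 (adjusted p = 0.0767). Genes near 1 CPM or below are limited by counting error.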
